A study of Mus musculus with 6 samples.

Results

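Chromatin accessibility was examined at 37 genes that mark monocytes and macrophages, in mouse cells of fetal liver origin that carry the oncogenic fusion MLL-ENL. The set holds colony-stimulating factor and apoptotic-cell receptors, Fc gamma receptors, scavenger receptors, lysosomal genes, lipid handling genes, adaptors and inhibitory receptors, and effector genes. Members were taken as 37 of 21951 annotated protein-coding genes, and a region belonged to a member if it overlapped the gene body or the 25 kb on either side of it. Of the 10016 regions in the deposited table, 43 met this rule, and none of them lay in the windows of several members.

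The assay was ATAC-seq, in which the Tn5 transposase cuts open chromatin, and accessibility is read as the number of fragments sequenced from a region. Libraries were made from 50000 sorted cells each, and the cells were cultured in interleukin 3 (10 ng/ml). The labels give 6 libraries in 3 groups of 2. All groups carried the MLL-ENL oncogene. The WT cells kept Cebpa and Cebpb, which the study describes as floxed alleles, and their labels name no added vector. The dKO cells had lost both genes (Cebpa KO, Cebpb KO), expressed GFP from a vector, and were clones selected after Cre treatment. In the third group, dKO cells expressed the rat C/EBPβ isoform LAP* with GFP, and those libraries were not analysed here. The study also reports that all recovered dKO clones strongly expressed the protein of another family member, C/EBPε. The vector, the clonal origin and this C/EBPε expression cannot be told apart from the genotype in a comparison of dKO with WT. The labels do not say whether the paired libraries of a group came from separate cultures.

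Macrophages recognise, engulf and digest particles and dying cells. Their identity rests on signalling through the receptor for macrophage colony-stimulating factor, on Fc and scavenger receptors that bind opsonised or altered material, and on cathepsins that degrade it in lysosomes. Inhibitory receptors of the Siglec, SIRP and CD300 families and activating receptors that pair with the adaptor DAP12 set the threshold of their responses. The transcription factors PU.1, C/EBPα and C/EBPβ are known regulators of myeloid genes of this kind, and AP-1 and RUNX factors act at many of the same elements.

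Levels are given as log2 mean normalised reads per region, averaged by the authors over the libraries of a group, and a change is the dKO level minus the WT level on this log2 scale. The table gives no value per library, so the levels carry no error and no test between the groups was made here. It lists only regions that passed the authors' corrected P-value cutoff of 0.05, and a gene without a listed region may be open in both groups or closed in both. For the same reason the labelled cell type could not be checked against its markers. In bulk chromatin, fewer cells with an open region and a less open region in every cell cannot be told apart. The deleted genes were lower in dKO, as their labels state. Regions over Cebpb went from 8.60 to 3.37 and from 7.38 to -0.15, and the region over Cebpa went from 9.99 to -0.15. The value -0.15 is the lowest in the table, and the last 2 were at least 61.6-fold and 376-fold lower against a floor of 3 reads per library, which covers counting error only. No region at the 37 genes was at or under this floor, a log2 mean of 1.43.

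The sequences below are from regions that recur in the results. They are the central 200 bases of a region, or the part of them outside exons, on the + strand of GRCm38.p6, whose chromosomes are those of mm10. Capitals mark matches, on either strand, to C/EBP (TTACNNAA or TTGCNNAA), PU.1 (GAGGAAGT), AP-1 (TGACTCA or TGAGTCA) and RUNX (AACCACA). No sites of different motifs overlapped in the regions at these genes. The first pair are from regions with large rises and hold none of the 4 motifs in the bases shown.
Ctsd, downstream, chr7:142363230-142363429: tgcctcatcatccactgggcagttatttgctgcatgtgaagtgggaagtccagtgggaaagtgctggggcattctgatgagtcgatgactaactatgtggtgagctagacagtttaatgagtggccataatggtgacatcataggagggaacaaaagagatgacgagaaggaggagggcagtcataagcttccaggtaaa
Cd33, intron, chr7:43538636-43538835: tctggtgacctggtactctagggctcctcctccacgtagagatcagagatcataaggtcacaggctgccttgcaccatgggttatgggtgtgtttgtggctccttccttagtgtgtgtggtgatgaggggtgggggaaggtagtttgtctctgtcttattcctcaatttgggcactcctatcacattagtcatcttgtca

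The next sequences are from regions higher in dKO that hold PU.1 or AP-1 matches. The upstream region of Cd33 and the regions at Cd36 and Marco each hold a PU.1 match, and those of Ctsb and Cd68 both AP-1 and C/EBP matches.
Cd33, upstream, chr7:43544674-43544873: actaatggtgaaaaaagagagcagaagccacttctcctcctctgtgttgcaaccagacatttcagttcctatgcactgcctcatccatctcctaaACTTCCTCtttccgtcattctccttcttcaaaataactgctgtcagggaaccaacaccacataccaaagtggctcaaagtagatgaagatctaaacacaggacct
Cd36, intron, chr5:17839677-17839876: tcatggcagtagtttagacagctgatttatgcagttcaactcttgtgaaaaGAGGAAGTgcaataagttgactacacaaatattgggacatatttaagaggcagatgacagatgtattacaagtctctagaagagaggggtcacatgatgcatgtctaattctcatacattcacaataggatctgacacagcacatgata
Marco, downstream, chr1:120449727-120449926: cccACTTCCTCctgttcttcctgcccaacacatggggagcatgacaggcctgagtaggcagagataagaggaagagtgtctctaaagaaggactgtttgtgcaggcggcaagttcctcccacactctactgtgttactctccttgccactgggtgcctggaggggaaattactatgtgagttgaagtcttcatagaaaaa
Ctsb, intron, chr14:63130746-63130945: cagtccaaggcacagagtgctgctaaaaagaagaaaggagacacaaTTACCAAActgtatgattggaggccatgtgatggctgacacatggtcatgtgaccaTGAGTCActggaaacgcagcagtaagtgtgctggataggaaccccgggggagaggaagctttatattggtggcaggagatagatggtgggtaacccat
Cd68, part upstream of the gene, chr11:69666154-69666332: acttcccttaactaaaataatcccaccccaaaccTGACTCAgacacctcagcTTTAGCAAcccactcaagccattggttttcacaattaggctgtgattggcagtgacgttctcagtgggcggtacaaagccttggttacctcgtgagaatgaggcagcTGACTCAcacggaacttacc

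The last pair are from regions lower in dKO, at the genes whose regions went in both directions. The Marco sequence holds 2 C/EBP matches and a RUNX match, and the Axl sequence a C/EBP match.
Marco, intron, chr1:120498139-120498338: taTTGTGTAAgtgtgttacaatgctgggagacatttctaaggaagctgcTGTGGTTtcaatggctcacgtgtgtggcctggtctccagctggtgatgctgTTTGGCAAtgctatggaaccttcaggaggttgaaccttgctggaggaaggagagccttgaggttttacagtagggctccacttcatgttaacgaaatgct
Axl, upstream, chr7:25790743-25790942: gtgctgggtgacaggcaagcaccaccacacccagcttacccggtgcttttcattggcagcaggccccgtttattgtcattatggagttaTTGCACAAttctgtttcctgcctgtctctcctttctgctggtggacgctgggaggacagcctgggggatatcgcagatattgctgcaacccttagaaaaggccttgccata

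The listed regions at the monocyte and macrophage genes were mostly more accessible in dKO. Of the 43 regions, 35 (81.4%) were higher in dKO and 8 (18.6%) were lower, beside 60.3% higher over all listed regions. The regions belonged to 21 of the 37 genes (56.8%), where 34.9% of all protein-coding genes had a listed region in the same window. Higher regions were found at 17 of the genes (45.9%), beside 22.6% of protein-coding genes, and lower regions at 6 (16.2%), beside 16.3%. The share of genes with a lower region was thus close to the background, and the share with a higher region was above it. These genes had a median body of 20213 bp, and all protein-coding genes one of 17403 bp. Those with a listed region had a median body of 23462 bp, and those without one of 15654 bp.

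The regions were unevenly spread over the genes. A single region was listed at 11 genes, 2 regions at 6 genes and 3 at each of Csf1r and Vsig4, whereas Cd33 and Tyrobp had 7 each. Only 0.264% of protein-coding genes had 7 or more listed regions, and at 0.118% these were all higher, as they were at Cd33 and Tyrobp (the limit of 7 was set after this largest number was seen). Regions close together at 1 gene are not independent, and without those of Cd33 and Tyrobp 21 of 29 (72.4%) were higher. Both genes lie on chromosome 7, where 16 of 17 regions at the set's genes were higher, beside 45.9% of the 538 listed regions on that chromosome. On the other chromosomes 19 of 26 (73.1%) were higher, beside 61.1% of 9478.

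**Figure D1:**
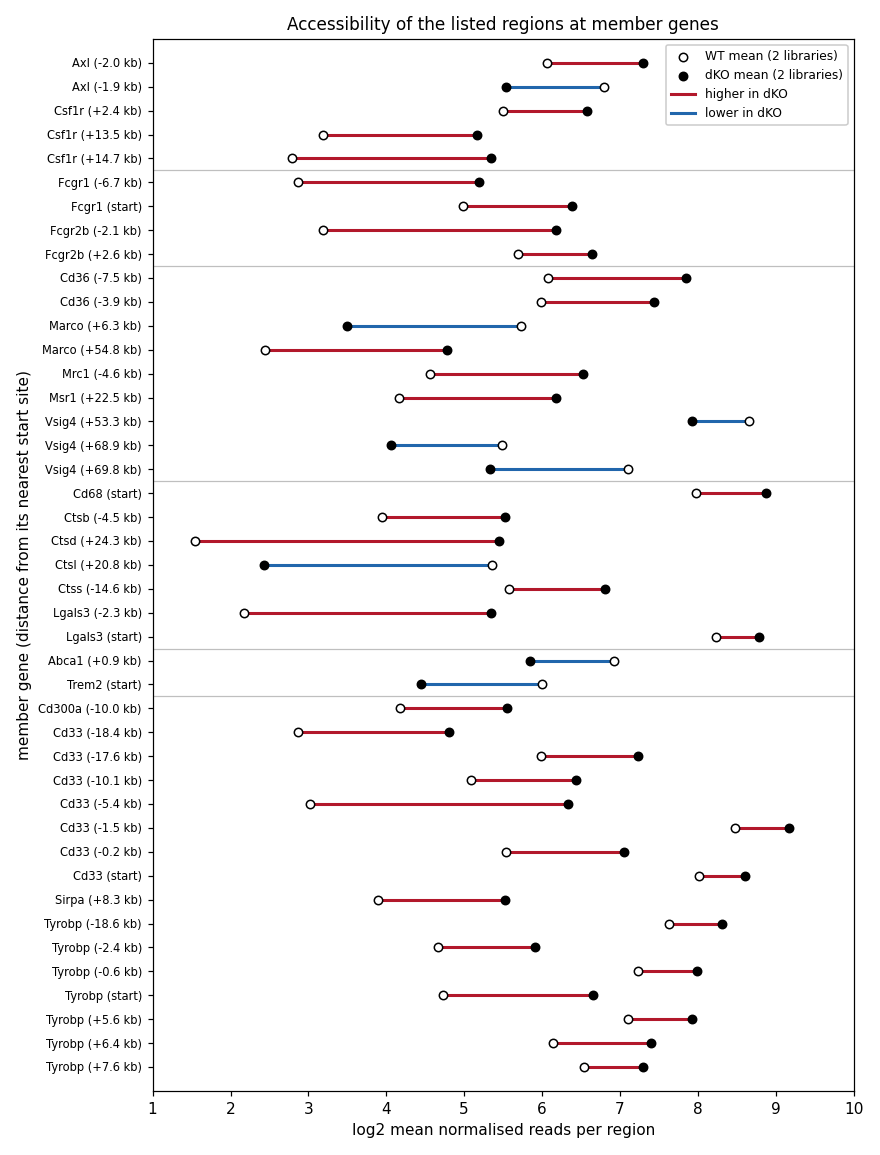
Levels of the 43 listed regions, in log2 mean normalised reads per region, with WT as open and dKO as filled circles, each a mean of 2 libraries given by the authors without an error. Red lines mark the 35 regions higher and blue lines the 8 lower in dKO, rows are labelled with the gene and the distance from its nearest start site, and grey lines separate the functional groups in the order of the text, with the blue lines at Axl, Marco, Vsig4, Ctsl, Abca1 and Trem2.

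The changes were moderate in size. The median change was 1.25 (quartiles 0.69 and 1.93), with a lowest value of -2.93 at Ctsl and a highest of 3.91 at Ctsd, and the median over all listed regions was 0.98. Among higher regions the median was 1.39 at these genes and 1.58 over the table, and among lower regions it was -1.49 and -1.85. Changes of at least 2-fold were found at 33 of the 43 regions (76.7%), beside 85.5% of all listed regions. As a group the higher regions at these genes thus had smaller gains than those of the table. They started from higher levels, with a median WT level of 5.09 against 4.52 over the table. Cd33 and Tyrobp supplied 7 of these higher regions each, and among the other higher regions both comparisons turned round. Without Cd33 and Tyrobp the median change of the remaining regions, higher and lower, was 1.38. Region widths were alike, with medians of 402 and 400 bp, and so was the GC content, with medians of 49.8% and 49.0%. A small change is listed only where the level is high, so level and change are tied by the cutoff.

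**Figure D2:**
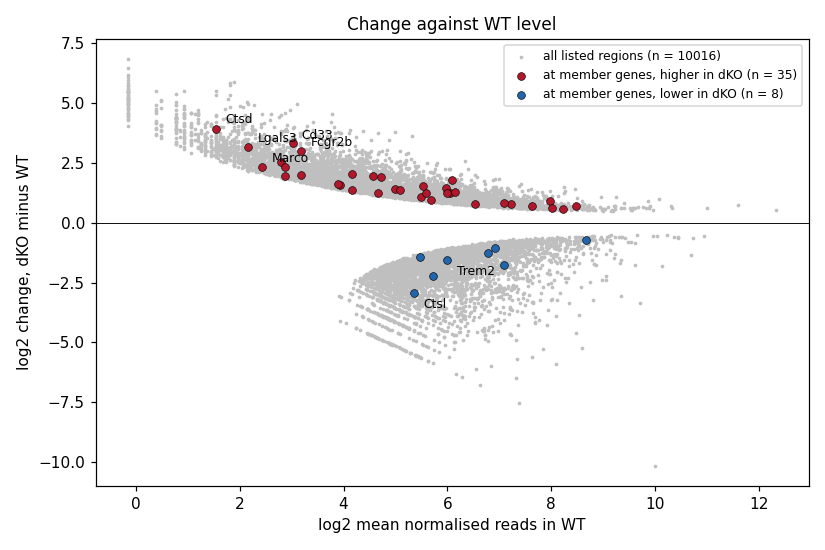
Change between dKO and WT (vertical axis, log2) against the WT level (horizontal axis, log2 mean normalised reads) for all 10016 listed regions in grey, with the 35 higher regions at the monocyte and macrophage genes in red and the 8 lower ones in blue. The empty band around 0 narrows as the level rises, because regions that missed the authors' cutoff are not listed, and the coloured points lie within the grey cloud from Ctsl at -2.93 to Ctsd at 3.91.

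Positions differed between weak and strong gains. A start site of any gene lay within 1 kb of 16 regions (37.2%), beside 19.1% of all listed regions. Most of the 16 were at Cd33 and Tyrobp, several of them near the starts of the neighbours Zfp658, Hcst and Nfkbid. Without those genes the share was closer to that of the table. The 13 higher regions of the 16, also mostly at Cd33 and Tyrobp, had a median change of 0.95 from a median WT level of 6.14. The 22 higher regions farther away had a median change of 1.70 from a WT level of 4.16. The table as a whole went the same way, with 1.30 near starts and 1.63 beyond. A start of the monocyte or macrophage gene itself was within 1 kb in 9 cases, 7 of them higher and 2, at Abca1 and Trem2, lower.

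Among receptors and surface markers, regions were listed at Csf1r and Axl, with 4 higher and 1 lower. Csf1r encodes the receptor for macrophage colony-stimulating factor, on which most macrophages depend. Its 3 regions all lay inside the gene and were all higher. The largest change was at chr18:61120576-61120911, 14697 bp from the start in a noncoding exon, where the level was 2.79 in WT and 5.34 in dKO, a rise of 2.55 or 5.86-fold. An intronic region close to it (chr18:61119401-61119691) went from 3.19 to 5.17, and the start of the microRNA gene Mir6983 is nearer to both than that of Csf1r. The region nearest to the Csf1r start, in an intron at 2444 bp (chr18:61108323-61108892), went from 5.50 to 6.58, so the gain was smaller where the WT level was higher. Accessibility does not measure expression. From RNA, the study reports decreased Csf1r in dKO cells and less similarity of these cells to monocytes and macrophages.

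Axl encodes a receptor tyrosine kinase that binds the bridging molecule GAS6 on dying cells. Its regions went in opposite directions, inside and upstream of the gene. An intronic region (chr7:25776680-25777154) had levels of 6.06 in WT and 7.29 in dKO, a change of 1.23. The upstream region (chr7:25790642-25791043), whose C/EBP match is printed above, had 6.79 in WT and 5.54 in dKO, a change of -1.25, and lies slightly nearer to the start of Gm29763 (1800 bp) than to that of Axl (1937 bp). Regions in both directions were found at 2 of the 37 genes (5.41%), Axl and Marco, beside 4.02% of protein-coding genes. No region was listed at Mertk, a kinase of the same family, at Adgre1, which encodes a surface antigen widely used for mouse macrophages, at Cd14, the co-receptor for lipopolysaccharide, or at Maf, a macrophage transcription factor.

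The Fc gamma receptors, which bind immunoglobulin G, had 4 regions at Fcgr1 and Fcgr2b, all higher in dKO. Fcgr1 encodes the high-affinity activating receptor. A region over its start (chr3:96293757-96294230) had levels of 4.99 in WT and 6.38 in dKO. A region 6700 bp upstream (chr3:96300669-96301091) was weaker in WT, at 2.87, and reached 5.19, a rise of 2.32 or 4.99-fold.

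Fcgr2b encodes the inhibitory Fc gamma receptor. The region 2083 bp upstream of it (chr1:170978630-170979024) rose from 3.19 to 6.18, a change of 2.99 or 7.94-fold. The other region (chr1:170973052-170973477), in an intron and over the start of Gm38204, went from 5.69 to 6.64, a change of 0.95. The activating and the inhibitory receptor thus both had a strongly gained upstream region beside a weaker gain at or inside the gene. Fcgr3 and Fcgr4, which lie near Fcgr2b on chromosome 1, had no listed region.

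Scavenger receptors, lectins and complement genes were the most mixed group, with 5 higher and 4 lower regions at 5 of 7 genes. Cd36 encodes a receptor for oxidised lipoproteins and fatty acids. Both of its intronic regions were higher, with levels of 6.08 in WT and 7.85 in dKO at chr5:17857257-17858194 and of 5.98 and 7.43 at chr5:17839586-17839968, where the PU.1 match is. Mrc1, the mannose receptor, had a region 4627 bp upstream (chr2:14224371-14224765) that rose from 4.56 to 6.52, a change of 1.96. Msr1, the class A scavenger receptor, had a region over a coding exon (chr8:39619588-39620123) that rose from 4.16 to 6.18, a change of 2.02 or 4.06-fold.

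Marco, a collagenous scavenger receptor of macrophages, had changes of similar size in opposite directions. The intronic region 6305 bp from its start (chr1:120498027-120498451) had a level of 5.73 in WT and 3.49 in dKO, a change of -2.24. The region downstream of the gene (chr1:120449667-120449987) had 2.44 in WT and 4.78 in dKO, a change of 2.34. The sequence that lost accessibility holds C/EBP and RUNX matches and the one that gained it a PU.1 match, as printed above.

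Vsig4 encodes a complement receptor of tissue macrophages. It was the only gene with several regions that were all lower, and all of them lay 53275 bp or more from its start, beyond its 3′ end. The largest change was at chrX:96223124-96223615, with 7.10 in WT and 5.33 in dKO, a change of -1.77, and the others had changes of -1.42 and -0.73. Their nearest starts are those of Gm9051 and F630028O10Rik, so they are at Vsig4 by the window alone, although no other coding start is nearer. No region was listed at Siglec1, the sialoadhesin gene, or at C1qa, a chain of complement C1q.

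Lysosome and phagosome genes were represented at 6 of 7 members, with 6 higher regions and 1 lower. Cd68 encodes a heavily glycosylated lysosomal membrane protein that is widely used as a macrophage marker. The region over its start (chr11:69665956-69666510) was already at 7.97 in WT and was at 8.87 in dKO, a change of 0.90. Lgals3, which encodes galectin-3, also had a strong region, at a start site inside the gene (chr14:47373727-47374765), with 8.23 in WT and 8.79 in dKO. The region 2298 bp upstream of Lgals3 (chr14:47365043-47365453) was weak in WT, at 2.17, and rose to 5.34, a change of 3.17 or 9.0-fold.

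The cathepsins are lysosomal proteases, and their regions included both extremes of the set. The region downstream of Ctsd (chr7:142363171-142363489) had a level of 1.54 in WT, just above the floor, and 5.45 in dKO, a change of 3.91 or 15.0-fold. It ranked 188 among the 6035 higher regions of the table, within the top 3.12%. It lies 24330 bp from the Ctsd start and 8770 bp from that of Ifitm10. The region downstream of Ctsl (chr13:64345863-64346212) had 5.36 in WT and 2.43 in dKO, a change of -2.93 or 7.62-fold lower, within the top 17.2% of lower regions. Both extremes thus lay downstream of the genes and outside the 10 kb around them.

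The other cathepsin regions showed smaller gains. At Ctsb an intronic region (chr14:63130710-63130981) went from 3.94 to 5.52, a change of 1.58. At Ctss the region (chr3:95511780-95512171) went from 5.58 to 6.81, a change of 1.23, and is nearer to the start of Ctsk, which encodes cathepsin K of osteoclasts, than to that of Ctss. Gpnmb, a transmembrane glycoprotein of phagosomes, had no listed region.

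Lipid handling genes had lower regions only. Abca1 encodes the transporter that exports cholesterol to apolipoprotein A-I. Its region in an intron 887 bp from a start (chr4:53158642-53159008) had a level of 6.92 in WT and 5.85 in dKO, a change of -1.07. Trem2 encodes a receptor for lipids that signals through DAP12. The region over its start (chr17:48346025-48346677) had 6.00 in WT and 4.44 in dKO, a change of -1.56 or 2.95-fold lower. No region was listed at Apoe, Lpl or Abcg1, which encode apolipoprotein E, lipoprotein lipase and a further cholesterol exporter, so the group rests on 2 regions.

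Adaptor and inhibitory receptor genes held the most regions, 16 at 4 of 5 genes, all higher in dKO. Tyrobp encodes DAP12, the signalling adaptor of TREM2 and related receptors, and its start went the opposite way from that of Trem2. The region over the Tyrobp start (chr7:30413613-30413910) had a level of 4.73 in WT and 6.65 in dKO, a change of 1.92 or 3.78-fold. A region 648 bp upstream (chr7:30412456-30413112) went from 7.23 to 7.99. The other 5 had changes from 0.68 to 1.26, and 3 of these lie nearer to the starts of the neighbouring genes Hcst, which encodes the related adaptor DAP10, and Nfkbid. The strongest gain of the locus was thus at the Tyrobp start itself.

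Cd33 encodes a sialic acid-binding receptor of myeloid cells. The region over a Cd33 start (chr7:43532945-43533631) was high in both groups, with 8.01 in WT and 8.60 in dKO. The region 187 bp upstream of the outermost start (chr7:43544615-43544933), with the PU.1 match, went from 5.53 to 7.05, a change of 1.52. The intronic region (chr7:43538547-43538924) had only 3.02 in WT and reached 6.33, a change of 3.31 or 9.92-fold. The remaining 4 regions, all upstream, had changes from 0.70 to 1.94, and for 3 of them the nearest coding start is that of Zfp658. At Cd33 the regions with the highest WT levels thus had the smallest gains.

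Sirpa and Cd300a encode receptors with inhibitory motifs. The intronic region of Sirpa (chr2:129601887-129602251) had levels of 3.89 in WT and 5.52 in dKO, a change of 1.63. The region 10038 bp upstream of Cd300a (chr11:114879662-114880003) had 4.17 and 5.55, a change of 1.38. Pirb, the paired immunoglobulin-like receptor B, had no listed region. Neither did Nos2 and Spp1, which encode inducible nitric oxide synthase and osteopontin.

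The direction of small gains depended on the centre used, since subtracting a constant turns every gain smaller than it. Subtracting the median of all listed regions, 0.98, left 26 of the 43 regions higher and 17 lower. Over all listed regions the centred split is even by construction. The 9 that turned were 4 at Tyrobp, 2 at Cd33 and 1 each at Cd68, Fcgr2b and Lgals3. Higher regions then numbered 10 of 16 in the adaptor and inhibitory group, 4 of 7 in the lysosomal group and 3 of 4 at Fc gamma receptors, and the counts of the other groups did not change. This median is over listed regions alone.

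Lists of related genes were then placed beside the set, and no region was shared between them and it. At 25 other monocyte and macrophage genes, 23 of 24 regions (95.8%) were higher in dKO, with a median change of 1.22. At 22 genes listed as neutrophil granule genes 18 of 22 regions (81.8%) were higher with a median of 1.30. This list also includes surface receptors such as Csf3r, Cxcr2 and Fpr1. At 20 mast cell and basophil genes 20 of 23 (87.0%) were higher with a median of 1.58. After centring, the higher shares of these lists were 70.8%, 63.6% and 78.3%. The set itself then had 26 of 43 regions higher, and the split over all listed regions was even by construction. The predominance of higher regions was therefore seen at genes of several myeloid lineages, and nothing in these counts sets the monocyte and macrophage genes apart. Between the neutrophil and mast cell lists 1 region was shared.

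The other monocyte and macrophage genes held a larger change than any at the set. A region of Slc11a1, which encodes the phagosomal metal transporter NRAMP1, rose from 2.24 to 6.17, a change of 3.93, at a start site inside the gene, and another at a start from 6.72 to 7.44. Changes close to starts were also listed at Itgax (2.70), Cd163 (2.42), Ly6c2 (2.42) and Stab1 (1.05 and 1.32). The only lower region was at Cybb, the catalytic subunit of the phagocyte oxidase, with 4.46 in WT and 2.30 in dKO. Genes of other myeloid lineages went the same way in larger part. Among neutrophil genes, a region of the formyl peptide receptor Fpr1 had the largest change, 2.25, while that at the Cd177 start had a change of -2.20, and regions near the starts of Mmp8, Mmp9 and Retnlg had changes of 0.74, 1.69 and 1.85. Among mast cell and basophil genes, a region 17273 bp upstream of Gata2 was at -0.15 in WT and at 5.12 in dKO, which is at least 12.9-fold higher, and one at Il1rl1, the interleukin 33 receptor, rose by 3.76. Starts were higher at Alox5 (1.13) and Gata2 (1.53 and 1.11).

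**Figure D3:**
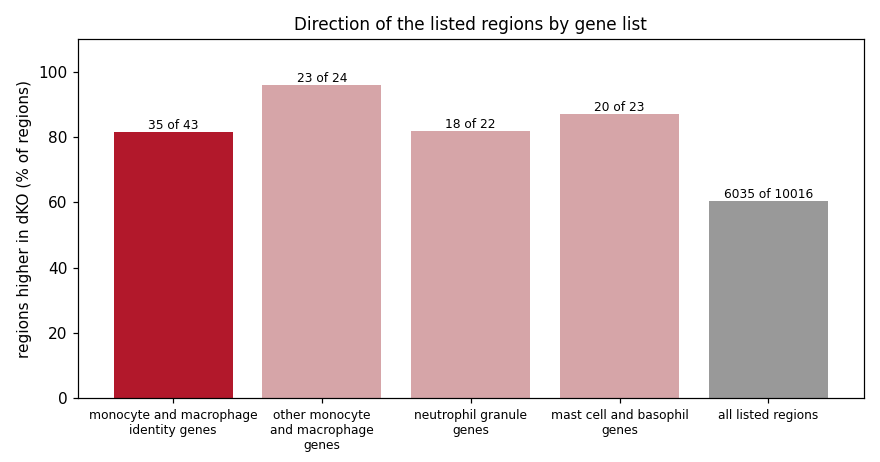
Share of listed regions higher in dKO (vertical axis, percent of regions) for the 37 monocyte and macrophage identity genes, the 3 comparison lists and all listed regions, with counts above the bars, which start at 0 and carry no error because regions are not replicates. All 4 gene lists are above the 60.3% of the table, with the identity genes at 81.4% as the lowest of the 4.

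Motif content was compared with all listed regions of the same direction, in the central 200 bp. Among the 35 higher regions, 8 (22.9%) held a PU.1 match, beside 13.1% of the 6035 higher regions of the table. These were at Csf1r, Fcgr2b, Cd36, Marco and Cd33, with 1 each, and at Tyrobp with 3. AP-1 matches were present in 5 (14.3%), beside 26.6%, at Cd68, Csf1r, Ctsb, Ctss and Fcgr2b. A PU.1 or an AP-1 match was present in 13 (37.1%), the same share as in the table. RUNX was matched in 1 (2.86%), the intronic region of Fcgr2b, beside 13.8%. Over whole regions AP-1 was in 11 (31.4%), beside 36.1%, and RUNX in 6 (17.1%), beside 22.3%.

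The C/EBP motif was found in 5 of the 35 higher regions (14.3%), beside 20.1% of the table, and in 3 of the 8 lower regions (37.5%), beside 40.8%. Over whole regions the order for higher regions turned, with C/EBP in 14 (40.0%), beside 35.3% of the table. In the central 200 bp, the higher regions with a C/EBP match were at Cd300a, Cd68, Ctsb, Fcgr1 and Tyrobp, and the lower ones at Axl, Marco and Trem2. In the same window none of the 8 lower regions had a PU.1 or an AP-1 match, which occurred in 3.37% and 4.65% of lower regions of the table. A RUNX match was in 1, beside 9.02%. Over whole regions AP-1 was in 1 of the 8 lower regions (12.5%), beside 8.89%, which turns the order. The regions with the 3 largest rises, at Ctsd, Cd33 and Lgals3, held none of the 4 motifs in the central 200 bp, nor did that of Ctsl with the largest fall. A match is a string and not a bound factor, and these shares rest on few regions, several of them at 1 gene.

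**Figure D4:**
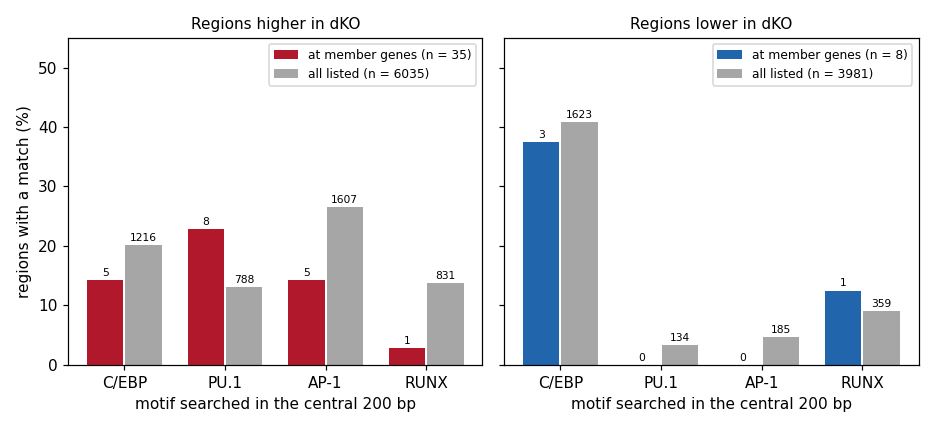
Share of regions with a match in the central 200 bp (vertical axis, percent) for the 4 motifs, in regions higher (left) and lower (right) in dKO, with the monocyte and macrophage genes in colour, all listed regions in grey and the number of regions with a match above each bar. C/EBP matches were at 14.3% and 37.5% in the higher and lower regions of the genes, beside 20.1% and 40.8% in the table, and PU.1 and AP-1 matches at these genes were in higher regions and in none of the 8 lower ones.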

How the data were processed

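ATAC-seq reads were preprocessed by the authors with PiGx, aligned to mm10 with Bowtie 2, called into peaks with MACS and compared with DiffBind (2.14.0 in the submitters' processing notes). The labels state a mean depth of 25000000 reads. The depth of each library, duplicate handling, the Tn5 offset and the merging of peaks were not given in the sources used here. Retained duplicates would raise strongly amplified regions. The authors' deposited table holds log2 mean normalised reads per region for WT and dKO, each over 2 libraries. Its columns of fold change, p-value and FDR, the authors' own comparison, were not used. Both deposited tables were identical, so that dKO-LAP* was not analysed. Tests planned for values per library were not run, since the table gives group means.

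Regions were placed with GENCODE M21 and the GRCm38.p6 sequence, using Python 3.11.15, pandas 2.3.3 and numpy 2.4.6, and the code was tested on simulated data. Distances are to the nearest start of any transcript, from the nearer region edge. Every gene with a region was named. A gene without a listed region and a sequence are not reported here. A region was given in full if within 1 kb of a start of its gene, if its change was the largest of its gene, or for both directions where they differed. Further regions were described in places after their values were seen. Genes of comparison lists were named for the largest change or a region within 1 kb of a start, except Cybb and Il1rl1, chosen after their values were seen. Members and lists were chosen with earlier results of these data known. Windows, nearest starts, centring, pseudocounts, floors and motif settings were varied.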

Additional observations from a re-analysis of the deposited data

How the results depend on the processing

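The median change stayed positive under every window, assignment, pseudocount and threshold tried. Over the alternatives that could change them, the regions numbered 19 to 50 (43 as reported), the genes with a region 15 to 23 (21) and the median change 0.27 to 1.45 (1.25). Counts that differed by more than 1.5 times follow. Within gene bodies alone there were 19 regions, 16 higher and 3 lower, and with 10 kb on either side 5 were lower. Requiring the nearest start of any gene to be the member's left 26 regions, 23 higher and 3 lower. Centring on the median of all listed regions gave 17 lower regions and a median change of 0.27. Without Cd33 and Tyrobp, an alternative chosen after seeing the data, 21 regions were higher. Over whole regions, C/EBP matches were in 14 of the higher regions (40.0%, beside 35.3% of the table, which turns the order seen in the central 200 bp), AP-1 in 11 (31.4%, beside 36.1%) and RUNX in 6 (17.1%, beside 22.3%), and AP-1 was in 1 of the lower (12.5%, beside 8.89%, which also turns the order). In the central 200 bp the C/EBP palindrome TTGCGCAA was in 0 of the higher (beside 0.0331% of the table) and 0 of the lower (beside 0.804%), shares too low for these counts to be read. No paired analysis was possible because only group means are listed, and no replicate could be left out. Depth per library is unknown, and changes under the authors' cutoff are not seen.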
